A study of Mus musculus with 8 samples.

Results

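Light chain variable (V) segments were measured in colon RNA of 8 mice with colitis induced by a chemical, 4 labelled Arg1 ko and 4 labelled wild type. A segment was included when its row mapped to a symbol starting with Igkv or Iglv, was not annotated as a pseudogene, and had a mean over the 8 libraries of at least 3. The segments were thus chosen by their measured mean, and that they lie above 3 is no finding. Of 103 such rows in the table, 77 met the rule, 74 of the kappa chain (Igkv) and 3 of the lambda chain (Iglv), among 53465 rows in all. The remaining 26 lay under the floor, and 3 of these were listed at 0 in all 8 libraries. None of the 60 pseudogene rows of the light chain reached a mean of 3. Values are regularised log2 values (rlog), on which a difference of 1 is a doubling, and rlog draws the values of weakly expressed genes toward their own mean.

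The Arg1 ko mice carried a conditional deletion of Arg1, the gene of the enzyme arginase 1, which breaks down arginine to ornithine and urea. The cell type of the deletion is not named in the labels. The wild-type mice were littermates that express the gene, and all mice were on the B6 background, aged 7 to 12 weeks, with age and sex matched. Both groups received 2.5% dextran sulfate sodium (DSS), which injures the colon epithelium, in their water for a week, then untreated water until day 10. The source is labelled as colon tissue, while the protocol describes epithelial aggregates shaken off with 30 mM EDTA after Peyer's patches had been removed.

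A B cell builds its light chain gene by joining 1 V segment to 1 J segment, and the joined gene is read together with a constant gene, Igkc for kappa or one of the Iglc genes for lambda. The V segment encodes most of the variable domain that meets the antigen, and its 3′ end forms the first part of the third complementarity-determining region (CDR3). Antibody RNA in the gut comes largely from plasma cells, which secrete IgA, so the RNA of a segment sums over all plasma cell clones that joined it. In bulk RNA, fewer plasma cells and less antibody RNA per plasma cell cannot be told apart.

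The highest pair of segments, Igkv1-110 and Igkv1-117, are close relatives, and their germline sequences show where they part. The last 300 bases of each V exon are given 5′ to 3′ as transcribed, from GENCODE vM21 on GRCm38 (chr6:68270968-68271267, plus strand, and chr6:68121528-68121827, plus strand). Capitals mark the 10 positions at which they differ.
Igkv1-110: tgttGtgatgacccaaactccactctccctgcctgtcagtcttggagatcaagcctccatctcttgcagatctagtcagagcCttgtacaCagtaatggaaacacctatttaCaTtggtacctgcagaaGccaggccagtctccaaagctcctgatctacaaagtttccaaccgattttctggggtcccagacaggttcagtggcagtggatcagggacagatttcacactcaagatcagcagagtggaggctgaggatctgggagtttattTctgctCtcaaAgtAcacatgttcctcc
Igkv1-117: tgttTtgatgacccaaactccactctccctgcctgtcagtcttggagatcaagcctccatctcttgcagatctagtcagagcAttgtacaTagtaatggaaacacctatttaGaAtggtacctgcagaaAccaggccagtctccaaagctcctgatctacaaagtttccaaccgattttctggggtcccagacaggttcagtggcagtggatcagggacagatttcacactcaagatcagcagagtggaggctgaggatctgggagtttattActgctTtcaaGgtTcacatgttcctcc
Coding identity of the pair was 97.2%. The lambda segments Iglv1 and Iglv2, on the minus strand of chromosome 16 (chr16:19085017-19085316 and chr16:19260401-19260700), shared 96.9% of their coding bases, and capitals mark the 8 differing positions in the same window.
Iglv1: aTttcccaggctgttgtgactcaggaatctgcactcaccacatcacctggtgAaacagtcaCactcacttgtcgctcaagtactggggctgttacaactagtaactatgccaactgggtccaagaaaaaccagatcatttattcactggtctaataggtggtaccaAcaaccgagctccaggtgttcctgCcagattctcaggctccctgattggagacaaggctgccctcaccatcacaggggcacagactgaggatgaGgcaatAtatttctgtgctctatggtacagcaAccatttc
Iglv2: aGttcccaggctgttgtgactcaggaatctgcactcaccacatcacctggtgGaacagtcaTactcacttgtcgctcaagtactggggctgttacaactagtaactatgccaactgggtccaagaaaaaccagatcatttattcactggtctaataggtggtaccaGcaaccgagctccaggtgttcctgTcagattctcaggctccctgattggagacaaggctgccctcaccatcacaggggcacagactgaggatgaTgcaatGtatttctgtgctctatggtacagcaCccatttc

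Arg1, the gene deleted, was 5.06, 4.87, 5.15 and 5.19 in Arg1 ko 1 to 4, against 5.59, 5.57, 5.02 and 5.58 across libraries labelled wild type 1 to 4. In Arg1 the third of these lay within the Arg1 ko range, and it is referred to as the library labelled wild type 3. The deletion is conditional and Arg1 still read 4.87 or more in every Arg1 ko library, so Arg1 cannot settle whether this label is right. Arg1 ko minus wild type was -0.37 (exact two-sided permutation p = 0.114, where 0.0286 is the smallest of the 70 assignments). Wild type 1 had the lowest ratio of V segment RNA to Igkc. Sample names run in 1 block per genotype, and the sources used here do not say whether the blocks mark batches, so a batch and the genotype cannot be told apart.

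Igkv1-110 gave the highest level in 7 of the 8 libraries and Igkv1-117 in Arg1 ko 3. Igkv1-110 measured 11.23, 10.74, 10.07 and 11.13 in Arg1 ko 1 to 4, against 11.27, 10.37, 11.54 and 10.27 across libraries labelled wild type 1 to 4. Its mean was 10.80 ± 0.53 in Arg1 ko and 10.86 ± 0.64 in wild type (SD, n = 4 each), a difference of -0.069 (SE 0.33). Igkv1-117 read 10.56, 10.65, 10.63 and 10.42 in Arg1 ko 1 to 4, against 11.25, 9.89, 11.07 and 10.27 across libraries labelled wild type 1 to 4. The Arg1 ko values of Igkv1-117 lay within a narrow range, inside the wild-type range. Its mean was 10.57 ± 0.10 in Arg1 ko and 10.62 ± 0.65 in wild type (SD, n = 4 each), a difference of -0.051 (SE 0.26). Igkv1-110 was above Igkv1-117 in every library except Arg1 ko 3, by less than 0.1 in Arg1 ko 2 and in wild type 1 and 4, so the order of the pair is not separated beyond the spread between mice.

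Igkv10-96 and Igkv6-23 followed, both on the minus strand of chromosome 6. Igkv10-96 reached 11.03, 9.47, 9.30 and 9.69 in Arg1 ko 1 to 4, against 9.42, 9.51, 10.45 and 9.23 across libraries labelled wild type 1 to 4. Igkv6-23 had 10.71, 8.81, 9.47 and 9.50 in Arg1 ko 1 to 4, against 9.39, 9.48, 9.75 and 8.68 across libraries labelled wild type 1 to 4. Arg1 ko 1 held the highest value of both segments, and the other libraries overlapped between the groups. Iglv1, the main lambda segment, came next. Iglv1 gave rlog values of 8.69, 8.85, 8.91 and 10.10 in Arg1 ko 1 to 4, against 9.90, 8.56, 9.78 and 8.61 across libraries labelled wild type 1 to 4. Both groups held high and low libraries of Iglv1, with Arg1 ko 4 highest and wild type 2 lowest.

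Among the next kappa segments, Igkv12-44, Igkv14-100 and Igkv1-135 had means over the 8 libraries of 8.31, 8.28 and 8.27. Igkv12-44 measured 8.12, 7.54, 7.77 and 9.11 in Arg1 ko 1 to 4, against 8.72, 8.18, 9.06 and 8.0 across libraries labelled wild type 1 to 4. Igkv14-100 read 8.70, 7.11, 7.81 and 9.56 in Arg1 ko 1 to 4, against 9.87, 6.60, 9.33 and 7.27 across libraries labelled wild type 1 to 4. Igkv14-100 spanned more than 3 log2 units, from wild type 2 to wild type 1, and no segment had a larger SD over the 8 libraries (1.25). Igkv1-135 reached 7.97, 8.70, 7.40 and 8.98 in Arg1 ko 1 to 4, against 8.21, 7.35, 9.11 and 8.45 across libraries labelled wild type 1 to 4. None of these 8 leading segments separated the groups, and the limma adjusted p lay between 0.656 and 0.987. The difference of Igkv12-44 (-0.36, SE 0.34) kept its sign when any 1 library was left out, while the other 7 turned sign with at least 1 library left out.

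**Figure D1:**
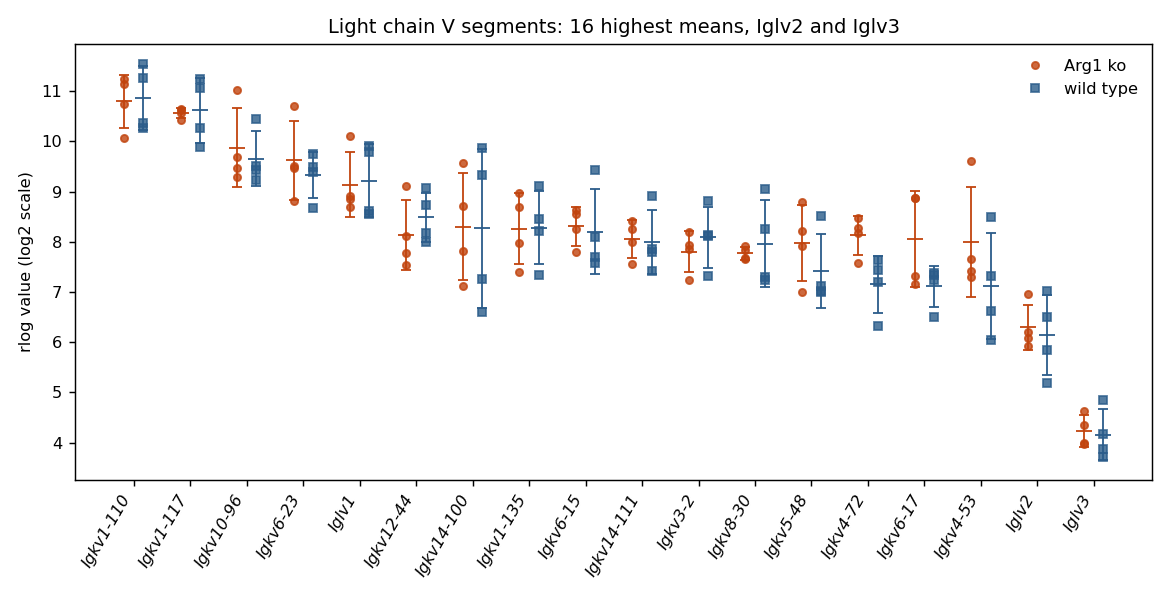
rlog values (log2 scale) of the 16 segments with the highest mean and of Iglv2 and Iglv3, with Arg1 ko libraries as circles on the left and wild-type libraries as squares on the right of each name. Bars give the mean and SD of 4 libraries, and the groups overlap for each of the 18 segments.

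Levels of different segments were compared per kb of transcript, as log2 of the linear level divided by transcript length. The transcripts were 338 to 404 bases long, so the order by level and by level per kb was nearly the same (Spearman 0.999 over 77 segments, a description). The level per kb was 12.15 for Igkv1-110, 11.90 for Igkv1-117, 11.24 for Igkv10-96, 10.91 for Igkv6-23 and 10.53 for Iglv1. Igkv14-100 and Igkv6-15 (9.78 and 9.78) were next and lay within their spread of each other. As a share of the summed linear level per kb of all 77 segments, Igkv1-110 took 12.8% on average (range 9.02% to 15.1%) and Igkv1-117 11% on average (range 7.67% to 14.7%). Igkv10-96 took 7.13% on average (range 4.69% to 13.3%), with the top in Arg1 ko 1.

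The 5 leading segments of a library together held 48.6%, 38.1%, 39.4% and 36.7% of this sum in Arg1 ko 1 to 4, against 47.0%, 41.5%, 39.4% and 40.9% across libraries labelled wild type 1 to 4. The effective number of segments, the exponential of the Shannon entropy of the shares (here without length correction), says how many equally used segments would give the same evenness. It was 30.6, 37.1, 36.8 and 37.5 in Arg1 ko 1 to 4, against 29.5, 35.8, 34.6 and 35.0 across libraries labelled wild type 1 to 4. Arg1 ko 1 and wild type 1 were the least even libraries, and the groups overlapped. With shrunken rlog values these shares are approximate, and no counting error can be given. The dissimilarity of 2 libraries' shares (Bray-Curtis, 0 for identical shares) had a median of 0.215 over the 6 pairs within Arg1 ko, 0.199 over the 16 pairs between the groups and 0.189 over the 6 pairs within wild type.

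By family, a group of segments of related sequence, Igkv1 was the most used with 26.5% of the summed level per kb from 5 segments. Its share ranged from 23.5% in Arg1 ko 4 to 31.9% in wild type 1. Igkv6 held 12.8% with 8 segments, Igkv4 11.5% with 19 segments, Igkv10 8.39% with 2 segments and Igkv8 7.07% with 6 segments. The family Igkv4 had the most segments and none among the 8 highest means. How reads matching several related segments were handled is not given, and the share of a family may depend on it. Igkv1 averaged 24.9% ± 2.15 in Arg1 ko and 28.1% ± 3.31 in wild type (SD, n = 4 each). Igkv4 averaged 12.4% ± 2.50 in Arg1 ko and 10.6% ± 1.49 in wild type (SD, n = 4 each). Igkv6 averaged 13.6% ± 3.60 in Arg1 ko and 11.9% ± 2.88 in wild type (SD, n = 4 each). Each of these differences was smaller than the larger of its SDs. The single rows of Igkv18 and Igkv20 lay under the floor.

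The second number in a kappa segment's name gives its place in the locus counted outward from Igkc. The kappa V segments lie in a row upstream of Igkc (chr6:70726435-70726966, plus strand). Segments on the plus strand join the J segments by deletion of the DNA between them, and those on the minus strand by inversion. The 28 segments on the strand of Igkc, of 38 rows on that strand, held 46.1% of the summed level per kb. The 46 segments on the opposite strand, of 62 rows, held 48.8%. Shares of the plus-strand segments ran from 41.5% to 54.8% over the libraries, and those of the minus-strand segments from 38.7% to 54.7%. The segments lay 22.3 to 3116 kb from Igkc. Within 1000 kb of Igkc 29 segments held 33.5% of the sum, between 1000 and 2000 kb 24 segments held 13.7%, and beyond 2000 kb 21 segments held 47.7%. Related segments lie near each other, many of Igkv4 in the middle stretch, so these shares carry the same limit on shared reads. Distance from Igkc and level per kb had a Spearman correlation of -0.074 over 74 segments, which share the same libraries. The stretch beyond 2000 kb holds Igkv1-110, Igkv1-117, Igkv10-96, Igkv14-100 and Igkv1-135.

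**Figure D2:**
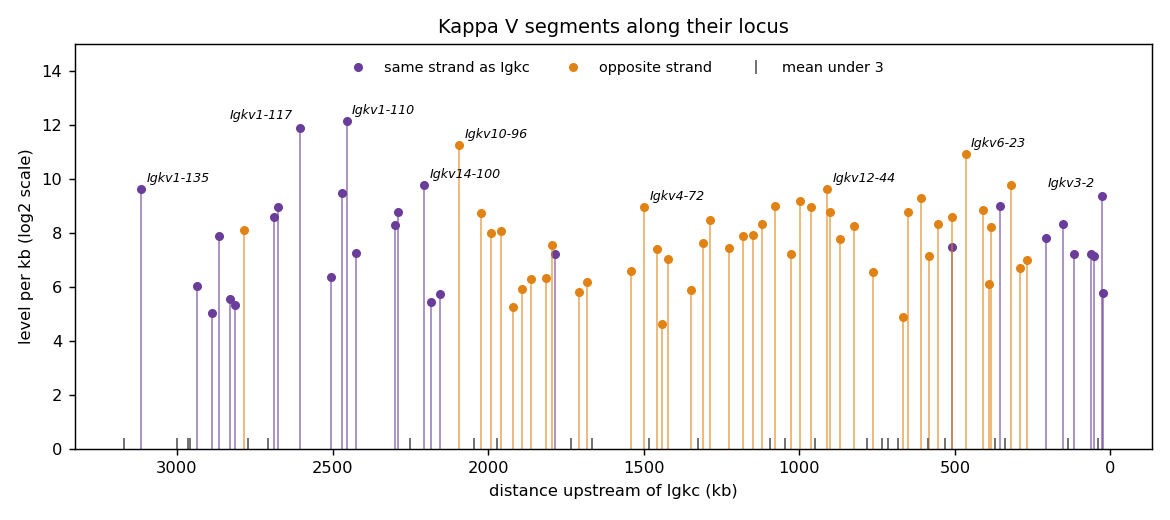
Level per kb (log2 scale, mean of 8 libraries) of the 74 kappa segments against distance upstream of Igkc in kb, coloured by strand, with rows under a mean of 3 as ticks on the axis. The leading kappa segments lie at 465 kb (Igkv6-23) and from 2094 to 2605 kb (Igkv10-96, Igkv1-110 and Igkv1-117). The middle window from 1000 to 2000 kb holds 13.7% of the summed level per kb.

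At the floor of the rule, the 3 segments just inside were Igkv9-129 (mean 3.54), Igkv7-33 (3.42) and Igkv4-69 (3.11). The 3 just outside were Igkv5-45 (2.75), Igkv1-122 (2.75) and Igkv8-34 (2.70). Igkv9-129 had 3.11, 4.05, 3.33 and 4.67 in Arg1 ko 1 to 4, against 3.03, 3.26, 3.51 and 3.38 across libraries labelled wild type 1 to 4. Igkv4-69 gave rlog values of 4.42, 2.76, 2.86 and 3.36 in Arg1 ko 1 to 4, against 3.05, 2.67, 2.94 and 2.78 across libraries labelled wild type 1 to 4. Igkv9-129 was highest in Arg1 ko 4 and Arg1 ko 2, and Igkv4-69 in Arg1 ko 1. Igkv8-34, outside the floor, had 4.53 in Arg1 ko 2 and between 2.26 and 3.16 in the other libraries. Of the 77 segments, 5 lay within 1 of the floor.

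Levels of single segments varied widely between mice. The SD over the 8 libraries was above the 95th percentile of rows with the same mean (within 0.5) for 60 of 77 segments, against 5% of all 16380 tested rows by construction. The median SD was 0.64 over the segments and 0.21 over all tested rows. These SDs are of levels and include shifts shared by a whole library. With the median deviation of all segments in a library subtracted, the median SD over the segments was 0.53. V segments of the heavy chain gave a like share, 60 of 76 (78.9%). The SD ran from 0.31 in Igkv13-84 to 1.25 in Igkv14-100. Igkv8-24, at a mean of 7.12, was among the steadiest, with an SD of 0.32. The count of wide segments was 53 without the library labelled wild type 3 and 63 without wild type 1.

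Spread within the groups was 0.53 in Arg1 ko and 0.64 in wild type as the median SD of 4 libraries over the segments. Over all tested rows these medians were 0.096 in Arg1 ko and 0.26 in wild type. The SD was larger in Arg1 ko than in wild type for 31 of 77 segments, against 9.07% of all tested rows. Igkv1-117 had an SD of 0.10 in Arg1 ko and 0.65 in wild type, and Igkv6-17 went the other way, with 0.95 in Arg1 ko and 0.41 in wild type. Wide spread was thus measured in both groups.

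**Figure D3:**
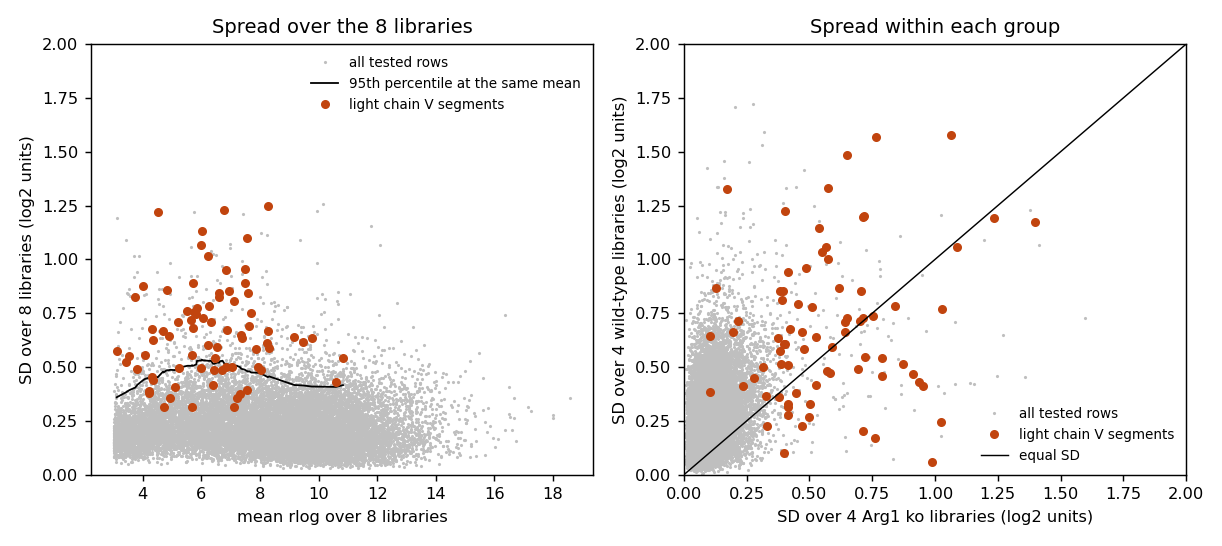
Left, the SD over 8 libraries against the mean rlog, and right, the SD over 4 wild-type libraries against the SD over 4 Arg1 ko libraries, both in log2 units. Orange points are the 77 segments, of which 60 lie above the 95th percentile line, and grey points are all tested rows.

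The widest segments, here the 6 with the largest SD after library medians were subtracted, were mostly high in a single library or a few. Igkv14-100 was high in Arg1 ko 1 and 4, wild type 1 and the library labelled wild type 3. After the median deviation of all segments in a library was subtracted, 9 values lay more than 1.5 above their segment's mean and none more than 1.5 below. The germline 3′ ends of the V exons of the widest are shown so that the segments can be told apart, with the germline part of CDR3, from the conserved cysteine codon on, in capitals (GENCODE vM21, GRCm38, coding strand).
Igkv8-19: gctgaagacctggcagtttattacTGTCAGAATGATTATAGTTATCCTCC
Igkv14-130: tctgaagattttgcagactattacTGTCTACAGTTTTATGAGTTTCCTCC
Igkv14-100: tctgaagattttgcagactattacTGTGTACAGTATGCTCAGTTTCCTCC
Igkv13-85: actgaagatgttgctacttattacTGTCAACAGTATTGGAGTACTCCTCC
Igkv4-61: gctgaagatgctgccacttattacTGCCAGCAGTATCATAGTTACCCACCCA
Igkv8-21: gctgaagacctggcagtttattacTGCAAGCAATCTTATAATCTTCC
They lie at chr6:70340876-70340925 (minus strand), chr6:67791462-67791511 (plus strand), chr6:68519428-68519477 (plus strand), chr6:68930269-68930318 (minus strand), chr6:69416893-69416944 (minus strand) and chr6:70314895-70314941 (minus strand).

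Igkv8-19 measured 6.95, 6.20, 9.06 and 6.01 in Arg1 ko 1 to 4, against 8.18, 5.77, 6.47 and 5.63 across libraries labelled wild type 1 to 4. Arg1 ko 3 stood 2.50 above the mean of Igkv8-19 once the library median was taken off, and in that library the segment took 4.84% of the summed level per kb, against 0.39% to 1.92% elsewhere. Igkv14-130 read 3.70, 3.97, 3.55 and 5.24 in Arg1 ko 1 to 4, against 6.89, 5.45, 3.70 and 3.60 across libraries labelled wild type 1 to 4. Wild type 1 stood 2.41 above the mean of Igkv14-130, and Arg1 ko 4 and wild type 2 were above the other libraries. Igkv13-85 reached 7.90, 6.16, 5.47 and 5.12 in Arg1 ko 1 to 4, against 6.29, 4.79, 7.35 and 5.02 across libraries labelled wild type 1 to 4. Arg1 ko 1 and the library labelled wild type 3 were the high libraries of Igkv13-85.

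Igkv4-61 had 5.28, 5.63, 5.52 and 6.88 in Arg1 ko 1 to 4, against 5.73, 7.41, 7.92 and 5.51 across libraries labelled wild type 1 to 4. Igkv8-21 gave rlog values of 7.08, 6.46, 7.13 and 8.18 in Arg1 ko 1 to 4, against 6.81, 8.21, 9.22 and 6.73 across libraries labelled wild type 1 to 4. Both of these segments were high in Arg1 ko 4, wild type 2 and the library labelled wild type 3. Besides Igkv8-19, Igkv14-130, Igkv13-85 in Arg1 ko 1 and Igkv4-61 in wild type 2, the values past 1.5 were Igkv4-70 in the library labelled wild type 3 (8.28 against a segment mean of 5.99), Igkv4-53 in Arg1 ko 4 (9.61 against 7.56), Igkv1-99 in Arg1 ko 1 (5.76 against 4.01), Igkv14-100 in wild type 1 (9.87 against 8.28) and Igkv2-109 in Arg1 ko 2 (7.37 against 5.82). Of the 9 values, 5 were in Arg1 ko libraries and 4 in libraries labelled wild type, and wild type 4 held none.

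**Figure D4:**
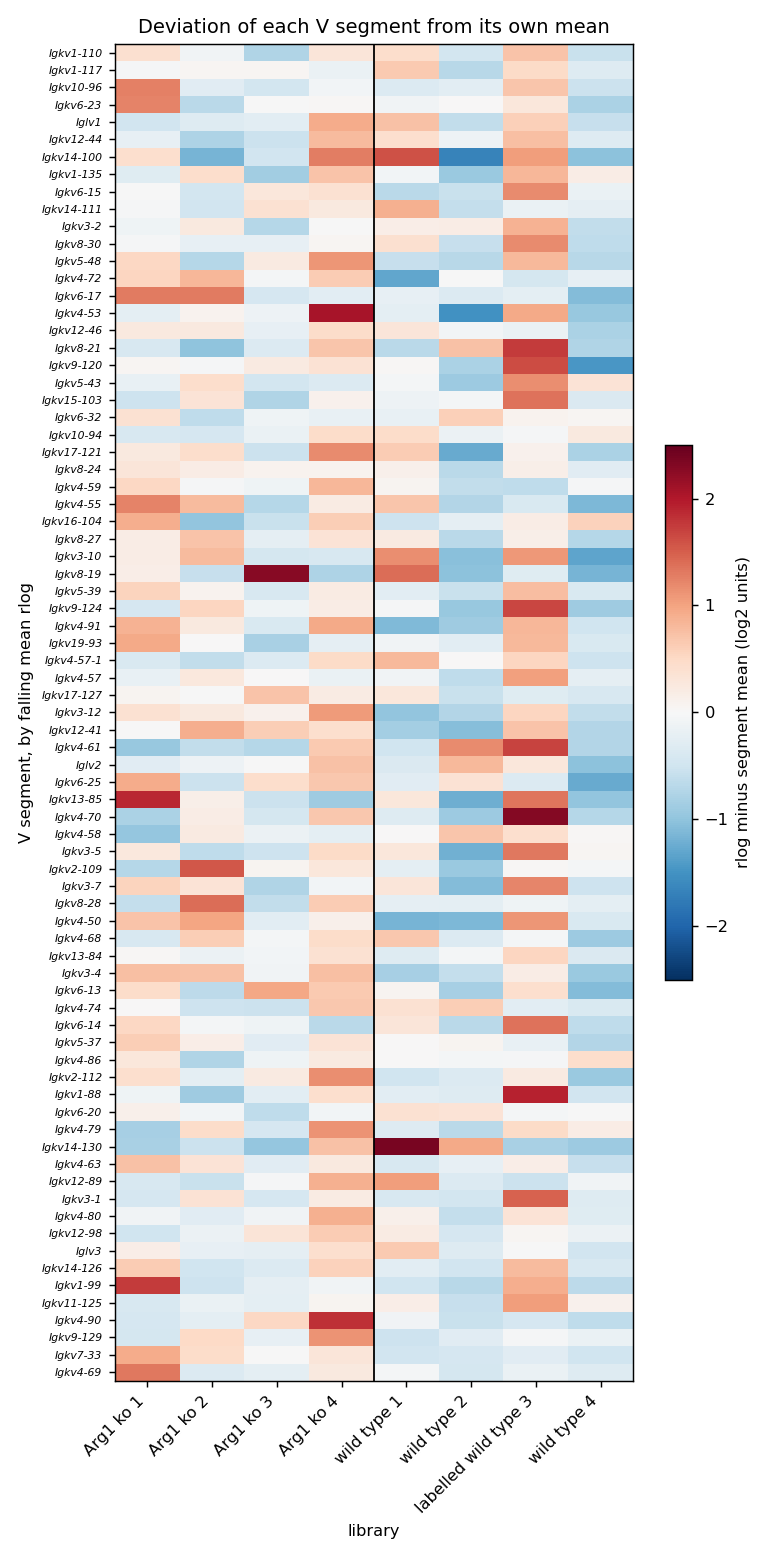
Deviation of each of the 77 segments (rows, by falling mean) from its own mean over 8 libraries, in log2 units, red above and blue below, with Arg1 ko left and wild type right of the line. Single dark cells mark one segment in one library, such as Igkv8-19 in Arg1 ko 3, and the columns of Arg1 ko 3, wild type 2 and wild type 4 are mostly blue, with 17, 13 and 10 of 77 segments above their own mean.

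Part of the spread was shared by whole libraries. The median deviation of the segments was 0.12, -0.028, -0.23 and 0.38 in Arg1 ko 1 to 4, against -0.040, -0.55, 0.47 and -0.50 across libraries labelled wild type 1 to 4. These library medians held 25.5% of the sum of squares of the segments' deviations, so most of it lay between segments within libraries. The library labelled wild type 3 held the highest value of 23 of 77 segments, against 12.5% of all tested rows. Wild type 2 held the lowest value of 25 of 77 segments, against 8.6% of all tested rows, and wild type 4 that of 22, against 24.3%, which is near its background.

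Igkc, the constant gene that kappa transcripts share, deviated by 0.11, -0.20, -0.25 and 0.18 in Arg1 ko 1 to 4, against 0.88, -0.24, 0.28 and -0.76 across libraries labelled wild type 1 to 4. Jchain, which joins IgA into dimers, and Igha, the IgA heavy chain constant gene, were high in wild type 1 too, by 0.69 and 0.81. The median light chain V segment was not high in wild type 1, with a deviation of -0.040, and that of the heavy chain V segments was -0.34. Some abundant segments were high there: Igkv1-117 was 11.2 and Igkv14-100 9.87 in wild type 1, the highest library of each, and Iglv1 was 9.90 and Igkv1-110 11.3. The log2 sum of the segments minus Igkc was -1.96 in wild type 1, and lay between -1.30 and -1.11 in the Arg1 ko libraries and between -1.54 and -0.98 in the other wild-type ones. Wild type 1 was thus lowest in this ratio of V to constant RNA, and wild type 2, at -1.54, also lay below the Arg1 ko libraries.

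The comparison of Arg1 ko with wild type asks whether the deletion goes with a change in segment use. No segment passed limma's test over all 16380 tested rows at an adjusted p of 0.05 (0 of 77, against 0% of all tested rows), and the smallest adjusted p was 0.522. With the wide spread of these segments, not passing does not show that a segment was unchanged. At an unadjusted p under 0.05, 10 segments were higher, against 4.73% of all tested rows, and 1 was lower, against 4.37%. The 10 include Igkv7-33, which met the rule only through the Arg1 ko libraries, so its place there is no support. Segments in a library come from the same RNA sample and scaling, so these counts are not of independent genes. The median difference, Arg1 ko minus wild type, was 0.16 over the segments, with quartiles of -0.16 and 0.51, and 0.0064 over all tested rows. A difference above 0 was seen for 48 of 77 segments, against 51.2% of all tested rows. The median ranged from 0.036 without Arg1 ko 4 to 0.42 without the library labelled wild type 3, and was 0.54 without that library and wild type 1. Relative to Igkc of the same library it was 0.24.

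The largest differences were those of Igkv3-4, Igkv4-72, Igkv12-41 and Igkv6-17, and the only segment whose groups did not overlap was Igkv7-33. Their 3′ ends are given as above, beside Igkv3-5, which has the same germline CDR3 part as Igkv3-4.
Igkv3-4: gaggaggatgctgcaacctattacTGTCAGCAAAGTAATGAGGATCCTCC
Igkv3-5: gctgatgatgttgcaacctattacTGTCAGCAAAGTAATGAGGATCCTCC
Igkv4-72: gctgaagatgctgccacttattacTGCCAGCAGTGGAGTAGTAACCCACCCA
Igkv12-41: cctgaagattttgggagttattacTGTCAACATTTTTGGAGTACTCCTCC
Igkv6-17: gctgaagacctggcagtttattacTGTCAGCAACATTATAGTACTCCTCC
Igkv7-33: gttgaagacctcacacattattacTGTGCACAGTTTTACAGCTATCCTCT
They lie at chr6:70672328-70672377 (plus strand), chr6:70663846-70663895 (plus strand), chr6:69226854-69226905 (minus strand), chr6:69858420-69858469 (minus strand), chr6:70371944-70371993 (plus strand) and chr6:70058632-70058681 (minus strand).

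Igkv3-4 measured 6.41, 6.39, 5.57 and 6.41 in Arg1 ko 1 to 4, against 4.83, 5.07, 5.85 and 4.74 across libraries labelled wild type 1 to 4. Arg1 ko 3 was the low Arg1 ko library, below the library labelled wild type 3. The difference of Igkv3-4 was 1.08, SE 0.27, which did not pass (limma adjusted p = 0.522, as for Igkv4-72, Igkv12-41 and Igkv6-17). Igkv4-72 read 8.18, 8.48, 7.58 and 8.28 in Arg1 ko 1 to 4, against 6.33, 7.64, 7.19 and 7.44 across libraries labelled wild type 1 to 4. Arg1 ko 3, at 7.58, lay inside the wild-type range and the other Arg1 ko libraries above it. Its difference was 0.98, SE 0.28. Igkv12-41 reached 6.23, 7.16, 6.86 and 6.67 in Arg1 ko 1 to 4, against 5.40, 5.18, 6.96 and 5.51 across libraries labelled wild type 1 to 4. The library labelled wild type 3 lay above Arg1 ko 1, 3 and 4, and the difference was 0.97, SE 0.36. Igkv6-17 had 8.88, 8.88, 7.16 and 7.31 in Arg1 ko 1 to 4, against 7.38, 7.23, 7.34 and 6.50 across libraries labelled wild type 1 to 4. Arg1 ko 1 and 2 were high and Arg1 ko 3 and 4 lay at or under the wild-type maximum, giving a difference of 0.94, SE 0.41.

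Igkv7-33 gave rlog values of 4.36, 3.89, 3.40 and 3.73 in Arg1 ko 1 to 4, against 2.94, 3.0, 3.14 and 2.92 across libraries labelled wild type 1 to 4. Igkv7-33 was the 1 segment of 77 with Arg1 ko all above wild type, against 2.36% of all tested rows, and 0 segments had Arg1 ko all below wild type, against 1.67%. Its difference was 0.85, SE 0.18, with the smallest unadjusted p of all segments (limma adjusted p = 0.522). It is weakly expressed: its wild-type mean lay just under the floor of 3 and its Arg1 ko mean was 3.85, so it met the rule only through the Arg1 ko libraries and its separation is a description. Igkv4-69 met the rule in the same way, 2 such segments in all, and none did so through wild type alone. With Igkc of the same library subtracted, 3 segments had groups that did not overlap, against 0.592% of all tested rows, a share from rows that then also carry the spread of Igkc.

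In the other direction, the most negative differences were those of Igkv4-61 (-0.81, SE 0.55), Igkv14-130 (-0.79, SE 0.68), Igkv4-58 (-0.57, SE 0.25) and Igkv8-21 (-0.53, SE 0.55), and none passed. Values of Igkv4-61, Igkv14-130 and Igkv8-21 in each library are given above. Igkv4-58 measured 5.0, 6.20, 5.83 and 5.73 in Arg1 ko 1 to 4, against 5.97, 6.66, 6.39 and 6.0 across libraries labelled wild type 1 to 4. The groups overlapped, and Igkv4-58 was the 1 segment lower at an unadjusted p under 0.05.

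**Figure D5:**
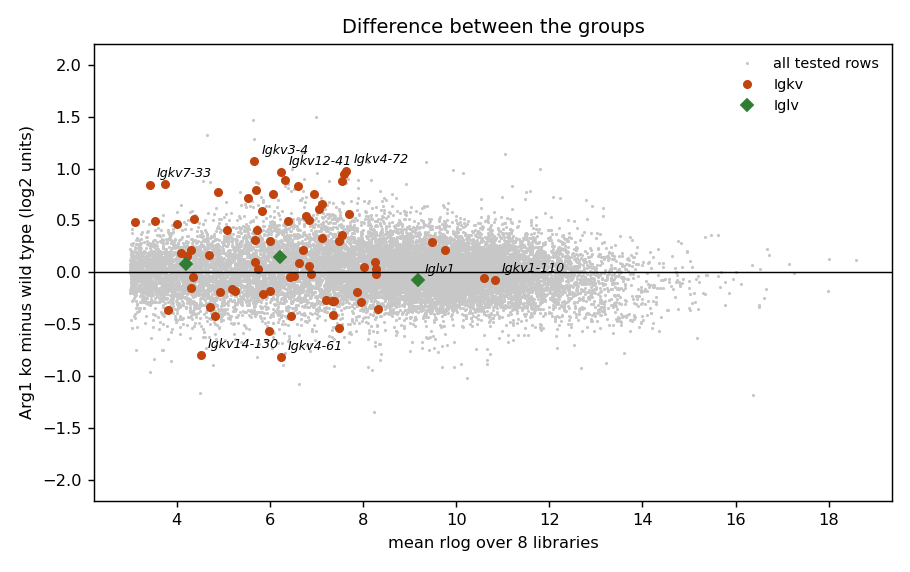
Difference of group means, Arg1 ko minus wild type in log2 units, against the mean rlog of 8 libraries, with kappa segments as circles, lambda segments as diamonds and all tested rows in grey. The differences of the segments run from -0.81 for Igkv4-61 to 1.08 for Igkv3-4, with 48 above 0 and 29 below.

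Without the library labelled wild type 3, 4 segments were higher by limma at an adjusted p of 0.05, against 2.85% of all tested rows, and 0 were lower, against 3.28%. They were Igkv3-12 (difference 1.22, adjusted p = 0.0324), Igkv12-41 (1.37, adjusted p = 0.0284), Igkv3-4 (1.32, adjusted p = 0.0289) and Igkv7-33 (0.89, adjusted p = 0.042). Because Igkv7-33 met the rule only through the Arg1 ko libraries, its place among the 4 is a description and no support. Over all alternatives run, the adjusted p went up to 0.819 for Igkv12-41, Igkv3-4 and Igkv7-33, and no other alternative took them past 0.05. Groups did not overlap for 7 segments without that library, all higher in Arg1 ko, against 25.6% of all tested rows in either direction. The library was left out after its values were seen, so these calls are no independent check.

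The B cell marker list was also highest in that library, with a mean deviation of 1.34, while no other library was above 0.23. Its 6 markers, Ms4a1 among them, summed to 7.52 to 7.81 in Arg1 ko and 7.26 to 8.87 in wild type on the log2 scale. The 6 plasma cell markers, Jchain among them, summed to 13.9 to 14.3 in Arg1 ko and 13.7 to 14.6 in wild type. Jchain and Sdc1, with means of 13.5 and 12.6, carried most of that sum. Sdc1 varied less (SD 0.073 in Arg1 ko and 0.14 in wild type) than Jchain (0.32 and 0.68). Sdc1 was highest in wild type 2 (12.8), where Jchain, at 13.1, was below its mean, so the sum is not read as plasma cell content. The 10 epithelial markers summed to 17.9 to 18.2 in Arg1 ko and 17.9 to 18.3 in wild type. None of these markers was at 0 in all libraries. Fibroblast and matrix markers, 5 of 6 higher in Arg1 ko, had a median difference of 0.44 and summed to 14.8 to 14.9 in Arg1 ko and 14.4 to 14.7 in wild type. Of the other marker lists, T cell markers had 3 of 6 higher (median difference 0.061), macrophage markers 4 of 6 (0.13) and neutrophil markers 1 of 5 tested (-0.60). Of the other antibody genes, the constant genes had 1 of 11 tested members higher and 10 lower in Arg1 ko (median difference -0.24), and the list of plasma cell and secretion genes 6 of 19 higher and 13 lower (median -0.045). The B cell list had 5 of 15 higher and 10 lower (median -0.071), and of 6 genes of V(D)J recombination and light chain start 1 was tested. No member of any of these lists passed limma's test over all rows. Mean deviations of the marker lists in wild type 4 were -0.40 (plasma cell), -0.43 (B cell), -0.67 (T cell) and -0.26 (macrophage). They were -0.25 (fibroblast and matrix), 0.19 (neutrophil) and 0.11 (epithelium) there. In wild type 1 they were 0.45, 0.23, 0.36, 0.17, -0.28, 0.23 and 0.15 in the same order. Library shifts were thus not limited to antibody genes. The part of these lists in the library shifts and in the differences of the V segments was not tested.

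The 3 lambda segments were described with their constant genes. Iglv2 read 5.93, 6.09, 6.21 and 6.96 in Arg1 ko 1 to 4, against 5.85, 7.02, 6.50 and 5.20 across libraries labelled wild type 1 to 4. Iglv3 reached 4.36, 3.98, 3.97 and 4.63 in Arg1 ko 1 to 4, against 4.86, 3.88, 4.18 and 3.72 across libraries labelled wild type 1 to 4. Iglv2 was highest in wild type 2 and Arg1 ko 4 and lowest in wild type 4, and Iglv3 was highest in wild type 1. The share of lambda segments in the summed level per kb was 2.91%, 4.21%, 4.95% and 7.26% in Arg1 ko 1 to 4, against 6.57%, 5.33%, 4.72% and 4.66% across libraries labelled wild type 1 to 4. Arg1 ko held both the lowest and the highest share.

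In the mouse lambda locus Iglv1 lies next to the constant genes Iglc3 and Iglc1, and Iglv2 and Iglv3 upstream of Iglc2. Over the 8 libraries, 12 relations between a lambda V segment and a constant gene were computed, with exact permutation p-values over 40320 pairings and Benjamini-Hochberg adjustment over the 12. Iglv1 followed Iglc1 with r = 0.95 (exact p = 0.00315, adjusted 0.0126) and rho = 0.90 (exact p = 0.00456, adjusted 0.0274), and r was 0.95 without the 2 libraries farthest from the median of Iglv1. Iglv2 followed Iglc2 with r = 0.86 (exact p = 0.0056, adjusted 0.0168) and rho = 0.74 (exact p = 0.0458, adjusted 0.11), and r was 0.62 without the 2 farthest libraries. Iglv2 and Iglc1 gave r = 0.29 (exact p = 0.489, adjusted 0.587) and rho = 0.26 (exact p = 0.536, adjusted 0.644) over all 8 libraries. Within groups of 4, too few for a test, r of Iglv2 with Iglc1 was 1.00 in Arg1 ko and 0.060 in wild type, and r of Iglv2 with Iglc2 was 0.98 in Arg1 ko and 0.84 in wild type. Iglv3 gave r = 0.93 with Iglc3 (exact p = 0.00144, adjusted 0.00863) and rho = 0.76 (exact p = 0.0368, adjusted 0.11), with r = 0.76 without the 2 farthest libraries. With Iglc2, Iglv3 gave r = 0.58 (exact p = 0.13, adjusted 0.174) and rho = 0.43 (exact p = 0.299, adjusted 0.399), with r = 0.42 without the 2 farthest libraries. Iglv1 and Iglc3 gave r = 0.80 (exact p = 0.0145, adjusted 0.0291) and rho = 0.60 (exact p = 0.132, adjusted 0.227), with r = 0.63 without the 2 farthest libraries. Igkc, on another chromosome, gave r = 0.75 with Iglv1 (exact p = 0.0215, adjusted 0.0369) and r = 0.91 with Iglv3 (exact p = 0.00082, adjusted 0.00863), so the relations were not limited to genes of 1 locus. The rho was 0.71 (exact p = 0.0576, adjusted 0.115) for Iglv1 and 0.90 (exact p = 0.00456, adjusted 0.0274) for Iglv3, and r without the 2 farthest libraries was 0.66 for Iglv1 and 0.89 for Iglv3. Iglv3 and Iglc1 gave r = 0.84 (exact p = 0.0101, adjusted 0.0244) and rho = 0.74 (exact p = 0.0458, adjusted 0.11), with r = 0.34 without the 2 farthest libraries. The remaining relations gave r between 0.037 and 0.59. Their adjusted exact p-values lay between 0.159 and 0.927 for r and between 0.324 and 0.882 for rho. Iglv1 and Iglv2 are close copies, as are Iglc2 and Iglc3, and the sources used here do not say how reads were shared between them.

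Sequence likeness limits how well single segments are told apart. Of the 77 segments, 30 had another member with a coding identity of at least 95%, and 1 pair of members, Igkv3-10 and Igkv3-5, reached 98.3%. Higher identities lay between members and rows under the floor: Igkv5-43 with Igkv5-45, and Igkv6-20 with Igkv6-29, which is listed at 0, were 98.6% alike in each case. Igkv3-10 had 7.02, 7.62, 6.41 and 6.44 in Arg1 ko 1 to 4, against 7.99, 5.80, 7.92 and 5.51 across libraries labelled wild type 1 to 4. Igkv3-5 gave rlog values of 6.10, 5.21, 5.34 and 6.32 in Arg1 ko 1 to 4, against 6.12, 4.64, 7.16 and 5.89 across libraries labelled wild type 1 to 4. The last 300 bases of their V exons differ at 6 positions, the last of them 16 bases from the 3′ end, within the germline CDR3 part. That of Igkv3-5 is given above, and that of Igkv3-10 is at chr6:70573181-70573230 (plus strand).
Igkv3-10: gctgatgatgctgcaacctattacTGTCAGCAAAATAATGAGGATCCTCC
The median segment had 74.9% of its 50-base windows in no other light chain V transcript of the annotation, 19 segments had all of them unique, and 12 had under 50%. Igkv1-110 was at 49.1% and Igkv1-117 at 50.1%, Igkv4-59 lowest at 25.7%, while Igkv14-100, Igkv14-130 and Iglv3 were at 100%. The germline CDR3 part took 70 distinct forms over the 77 segments, and 6 forms were shared by 13 segments, one of them by Igkv4-72, Igkv4-59 and Igkv4-68. Of the shared forms, that of Igkv13-85 and Igkv13-84 joins one of the widest segments (SD 1.13) and the steadiest (SD 0.31). Igkv14-126 is a pseudogene in RefSeq though not in the annotation that fixed the rule, and its mean was 4.08. Iglv3 has an in-frame stop codon in its germline coding sequence, at the 3′ end shown here, where bases are often trimmed on joining.
Iglv3: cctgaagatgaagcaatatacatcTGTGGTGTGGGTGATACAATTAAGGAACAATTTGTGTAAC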

How the data were processed

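Messenger RNA was sequenced from 8 mice, 4 Arg1 ko and 4 wild type, and the libraries, per the labels' protocols, took 1000 ng of RNA each through a stranded mRNA kit of Illumina. Per the submitters' processing notes, the genome build was GRCm38 and the tools included STAR 2.5.2b and BWA 0.7.14-r1136, featureCounts of Subread 1.5.3, and DESeq2 1.16.1. The sources used here do not give their order, the strand setting or how reads that match several segments were handled. The authors deposited rlog values, which are log2 values scaled for library size and shrunken for weak genes, so counts and depth are unknown and no counting error can be given.

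Segments and lists were chosen with earlier results of these data known. Rows were named from GENCODE vM21 (53274 of 53465 matched). The 16380 rows with a mean of at least 3 entered a limma 3.58.1 fit (R 4.3.3, two-sided, moderated, variance trend, Benjamini-Hochberg), with no covariate. Arg1 was tested by exact permutation. Shares were computed from linear values, per kb of transcript unless stated. Limma's p-values set a difference of group means against the spread between these libraries. Permutation p-values rank a value among reassigned or re-paired libraries. The test was checked on simulated data with independent noise per row, without the library shifts that the segments share. There a shift of all V segments by 1, about the size of the largest differences observed, was recovered for 0 of 77. A shift by 2 was recovered for 32 of 77. Among 50 rows drawn from all tested rows, a shift of 1 was recovered for 35.

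Segments named with every library's value were the 8 with the highest mean, the 4 with the largest and the 4 with the smallest difference, those with separated groups, the 6 with the largest SD after subtracting library medians, the lambda segments, the 3 on either side of the floor (those outside by their mean), and near-identical pairs. Igkv3-12, Igkv4-70, Igkv4-53, Igkv1-99, Igkv2-109, Igkv8-24, Igkv13-84, Igkv6-15, Igkv4-59, Igkv4-68 and Igkv14-126 were named after their values were seen. Alternatives varied the filter, moderation, threshold, scaling and the libraries. Promoters and recombination signals were not analysed here.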

Additional observations from a re-analysis of the deposited data

Results flagged for a closer look

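Of 68 sets of 4 values examined, 7 (10.3%) had 1 library far from the other 3 of its group. Chance gives about 1 in 20 in independent sets. These sets share their libraries, and many hold genes picked by their values here, so no excess over that rate can be read from the share. Iglv1 was 10.1 in Arg1 ko 4 and lay between 8.69 and 8.91 in the other Arg1 ko libraries. Iglc2, a lambda constant gene, was 8.46 in Arg1 ko 4, against 7.75 to 7.80 in the other Arg1 ko libraries, and 6.82 in wild type 4, against 8.24 to 8.42 in the other libraries labelled wild type. Igkv3-4 was 5.57 in Arg1 ko 3, while the other Arg1 ko libraries lay between 6.39 and 6.41. Igkv6-17 was 6.50 in wild type 4 and between 7.23 and 7.38 in the other libraries labelled wild type. The effective number of segments was 30.6 in Arg1 ko 1, below the 36.8 to 37.5 of the other Arg1 ko libraries. Arg1 was 5.02 in the library labelled wild type 3, below the 5.57 to 5.59 of the other libraries labelled wild type.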

How the results depend on the processing

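No paired analysis was possible because replicate numbers were given in accession order and pair no mice. With 1 library left out, the count of segments past limma's adjusted p of 0.05 ranged from 0 to 4, the 4 coming without the library labelled wild type 3, where 1005 of all tested rows passed. Igkv7-33, 1 of the 4, met the rule only through the Arg1 ko libraries. Every other alternative run gave 0. The count of segments with separated groups was 1, ranged from 1 to 7 with 1 library left out (7 without the library labelled wild type 3, against 25.6% of all tested rows; 5 without Arg1 ko 2 or Arg1 ko 3, against 7.61% and 5.93%; 3 without Arg1 ko 1, wild type 1 or wild type 2, against 5.98%, 7.31% and 5.32%), was 0 among segments with a mean of at least 5, since Igkv7-33 drops out, and 3 relative to Igkc (against 0.592%), an alternative chosen after seeing the data. The median difference of 0.16 stayed above 0 throughout, from 0.036 without Arg1 ko 4 to 0.54 without wild type 1 and the library labelled wild type 3, also chosen after seeing the data. The count of wide segments was 46 to 63, the 46 being of 58 segments with a mean of at least 5. The median effective number of 35.4 was 19.7 by the inverse Simpson index, which weights common segments more, and within 35.0 to 36.8 otherwise.

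The difference changed sign under an alternative for 15 of 26 genes. With 1 library left out it ranged from -0.27 to 0.17 for Igkv1-110, -0.29 to 0.16 for Igkv1-117, -0.17 to 0.48 for Igkv10-96, -0.067 to 0.57 for Igkv6-23, -0.40 to 0.16 for Iglv1, -0.52 to 0.56 for Igkv14-100, -0.33 to 0.27 for Igkv1-135, -0.16 to 0.45 for Iglv2, -0.070 to 0.31 for Iglv3, -0.35 to 0.20 for Igkc, -0.57 to 0.11 for Iglc1, -0.36 to 0.17 for Iglc2, -0.43 to 0.048 for Iglc3, -0.24 to 0.25 for Jchain and -0.27 to 0.23 for Igha. Quantile normalisation gave -0.032 for Igkv14-100, 0.038 for Igkc, -0.060 for Iglc2 and 0.028 for Igha. Aligned library medians gave -0.021 for Iglc2 and -0.0082 for Jchain. The cause was not tested. Without counts, the depth that limits weak segments is unknown, and rlog shrinkage lowers both their differences and their spread.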
